A study of Mus musculus with 7 samples.

Results

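The genes described here build the machinery that divides chromosomes: the spindle, the kinetochore, the centrosome and the checkpoint that watches them. They were chosen by symbol, with earlier results of these data known, as 41 named genes of the 55364 listed in the RNA-seq table. They fall into 7 roles, namely 2 kinases of mitotic entry, 5 genes of the chromosomal passenger complex, 7 of the spindle assembly checkpoint, 11 of the kinetochore, 8 spindle motors or microtubule factors, 2 protectors of cohesion and 6 genes of the centrosome. The cells were mini-oocytes, which are oocyte-like cells that form when mouse embryonic stem cells (mESCs) are made to express oocyte transcription factors. All samples descend from BVSC H18, a female mESC line of a hybrid 129/C57BL6 background. In 4F-mini-oocytes the factors were Nobox, Figla, Tbpl2 and Lhx8, and 8F-mini-oocytes had Stat3, Dynll1, Sub1 and Sohlh1 as well. Per the study, 4F and 8F cells are separate mESC lines, and the 8F line carries an Npm2-mCherry reporter. The factor set therefore cannot be told apart from the line and its reporter. Each factor was fused to a domain that is degraded unless the ligand Shield-1 is present. All cells grew on poly-L-ornithine and laminin, without ovarian somatic cells, in StemPro-34 medium with SCF, the ROCK inhibitor Y-27632 and Shield-1, and from day 12 the fresh medium held no Shield-1. The groups were 4F at day 7 (n = 2, each a pool of 1000 cells), 4F at day 21 (n = 3, pools of 10 cells) and 8F at day 21 (n = 2, pools of 10 cells). The day and the number of cells pooled therefore change together and cannot be told apart. Nothing in the labels says whether replicates came from separate inductions, so p-values measure the spread between these samples, which may be technical.

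Chromosomes are pulled apart by microtubules that attach to kinetochores, protein plates built on the centromere. Aurora kinases of the chromosomal passenger complex loosen wrong attachments, and the spindle assembly checkpoint holds back anaphase until every chromosome is attached. Oocytes meet this task under special conditions. They stay arrested in prophase of the first meiotic division for a long time, store the mRNAs and proteins for the divisions to come, and lose their centrioles, so that their spindle forms from many microtubule-organizing centres that contain pericentrin. They also carry a further Aurora kinase, Aurkc, that most somatic cells lack. Cycling mESCs express most of the same genes for mitosis, so the mRNA level of these genes alone does not separate a dividing cell from an oocyte that stores them.

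In proliferating cells many of these genes share 2 promoter elements: the cell cycle homology region (CHR) and, upstream of it, CCAAT boxes bound by NF-Y. The window from 250 bases before to 50 bases after the start was available for 36 of the 41 genes (RefSeq, GRCm38.p6), and Aurkb, Incenp, Spc24, Tpx2 and Cep192 are named only. A CHR (TTTGAA or TTCGAA, on either strand) was found in 20 of the 36 windows (55.6%), against 21.7% of the 27025 genes with a window. A CCAAT box (CCAAT, either strand) was found in 24 (66.7%, against 41.1%), and 17 of the 36 held both, against 9.65% of all genes. The E2F elements TTCCCGC or TTGGCGC were found in 6 windows (16.7%, against 7.79%). The Nobox element TAATTG, for a factor induced in every library here, was found in 1 window, that of Cenpc1 (2.78%, against 9.22% of all genes), where it overlaps a CCAAT box. These are matches of letters, not binding. In most of the 20 genes the CHR lies just after the start, outside the stretches shown here. These stretches end at the base before the start. The first 4 are shown because their CHR or CCAAT boxes lie before the start. Birc5 and Nuf2, which hold neither element, were chosen from the genes that rose most by day 21. Whether these elements had a part in the rise was not tested. Capitals mark CHR and CCAAT matches on either strand.
Cdc20 (chr4:118437344-118437453, minus strand): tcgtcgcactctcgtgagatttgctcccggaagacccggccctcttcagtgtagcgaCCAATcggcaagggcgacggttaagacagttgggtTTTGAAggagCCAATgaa
Kif11 (chr19:37376272-37376381, plus strand): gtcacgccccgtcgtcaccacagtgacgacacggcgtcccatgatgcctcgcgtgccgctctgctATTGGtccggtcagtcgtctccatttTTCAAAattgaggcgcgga
Ckap5 (chr2:91526652-91526761, plus strand): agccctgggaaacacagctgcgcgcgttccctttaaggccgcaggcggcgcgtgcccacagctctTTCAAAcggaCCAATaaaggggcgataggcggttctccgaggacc
Bub1b (chr2:118598011-118598210, plus strand): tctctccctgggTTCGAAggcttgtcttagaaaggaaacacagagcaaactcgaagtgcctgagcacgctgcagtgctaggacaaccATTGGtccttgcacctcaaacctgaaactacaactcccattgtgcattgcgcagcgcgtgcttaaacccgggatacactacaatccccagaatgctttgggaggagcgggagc
Birc5 (chr11:117849127-117849236, plus strand): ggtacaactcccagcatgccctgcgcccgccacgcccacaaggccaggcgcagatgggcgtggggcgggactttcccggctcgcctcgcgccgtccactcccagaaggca
Nuf2 (chr1:169531465-169531574, minus strand): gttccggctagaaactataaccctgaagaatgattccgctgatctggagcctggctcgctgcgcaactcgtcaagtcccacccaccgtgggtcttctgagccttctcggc
In Cdc20 a CCAAT box begins 53 bases before the start and the CHR begins 18 bases before it, and in Kif11 these distances are 45 and 19 bases. Within the stretches shown, Bub1b and Ckap5 have the reverse order. Their marked CHR begins 188 and 45 bases before the start, and their marked CCAAT box 113 and 35 bases before it. The window of Bub1b also holds a CHR (TTTGAA) after its CCAAT box, beginning at base 41 counted from the start, outside the stretch shown. The median log2 fold change from day 7 to day 21 in 4F-mini-oocytes was 1.51 for the 20 genes with a CHR and 1.29 for the 16 without, 1.37 for the 24 with a CCAAT box and 1.60 for the 12 without, and 1.11 for the 6 with an E2F element and 1.42 for the 30 without.

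Together the 41 genes were measured at 2187 and 2345 TPM in the day 7 libraries, at 7948, 7688 and 7701 TPM in 4F-mini-oocytes at day 21, and at 6602 and 6690 TPM in 8F-mini-oocytes. TPM is a read number scaled first by exon length and then by the library's total, so levels can be compared between genes, but they are shares of the mRNA measured and not amounts per cell. In such bulk samples fewer cells with a transcript and less of it per cell cannot be told apart. Limma's moderated test on log2(TPM + 1) placed 36 of the 41 genes past FDR 0.05 when 4F-mini-oocytes of the 2 days were compared, 35 of them higher at day 21. Among the 21780 genes tested, 40.6% were past that threshold, 25.3% higher and 15.3% lower. The median log2 fold change of the 41 genes was 1.39, against 0.17 for all genes tested. The single gene that fell was Cep192, and Cenpa, Cenpc1, Numa1, Cep152 and Cep63 did not pass the test. In 37 of the 41 genes every day 21 4F library lay above both day 7 libraries, against 33.8% of all genes tested, and 1 gene lay wholly below, against 22.9% (together 56.7% of all genes). Of the 35 genes that rose, 6 did not pass after quantile normalization and 9 did not pass with voom, a weighted limma fit on read numbers estimated back from TPM. With voom the median of all genes moved to -0.32 and that of the 41 genes to 0.93.

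**Figure D1:**
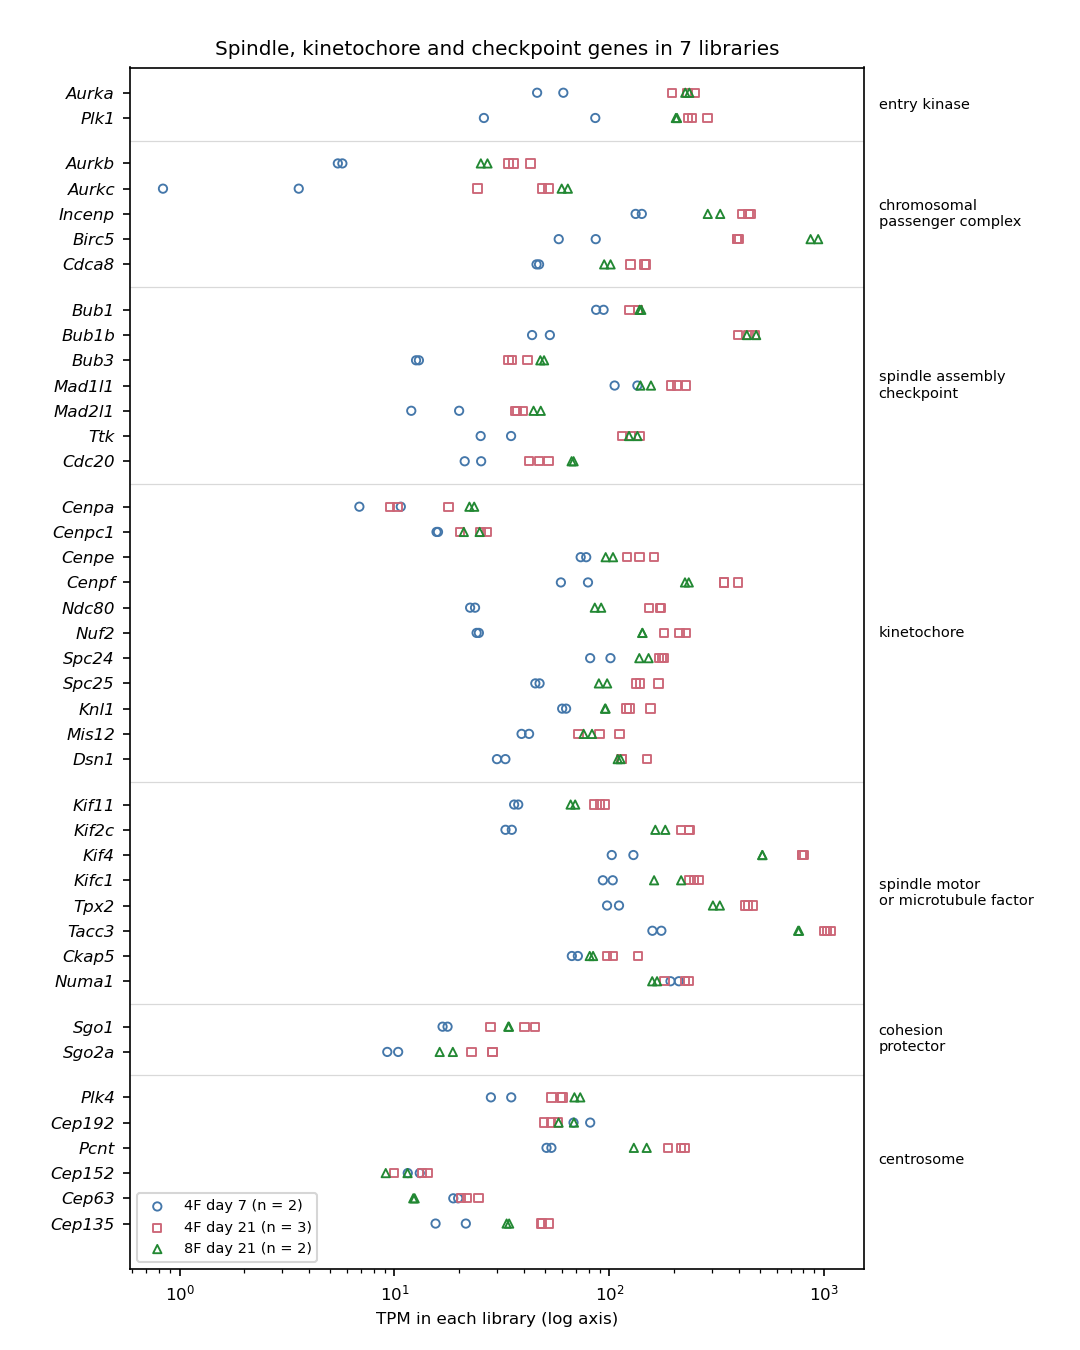
Level of each of the 41 genes in each of the 7 libraries, in TPM on a log axis, with genes grouped by role and each point 1 library. The day 7 libraries (circles) lie to the left of the day 21 libraries (squares for 4F, triangles for 8F) for all genes except Cenpa, Numa1, Cep192, Cep152 and Cep63.

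The kinases of mitotic entry rose together in 4F-mini-oocytes. Aurka, the Aurora kinase of spindle poles, was at 46.1 and 61.1 TPM at day 7, 196, 231 and 249.5 TPM in 4F-mini-oocytes at day 21, and 226 and 236 TPM in 8F-mini-oocytes. All day 21 libraries lay above both day 7 libraries, and the 4F and 8F libraries of day 21 overlapped. Its log2 fold change from day 7 to day 21 in 4F-mini-oocytes was 2.06 (SE 0.16, adjusted p = 0.000206). Plk1, the Polo kinase that drives entry into division and resumption of meiosis, was at 26.1 and 86.0 TPM in the day 7 libraries, 242, 232 and 286 TPM in the 4F libraries and 204 and 206 TPM in the 8F libraries of day 21. Here the day 7 libraries differed more than 3-fold from each other, and still both lay below every day 21 library. The rise of Plk1 by 2.38 (SE 0.44, adjusted p = 0.0058) was 1.54 without the lower day 7 library (replicate 1) and 3.23 without the other. An overlapping transcript on the opposite strand, Gm44985, shares 7.1% of the exon bases of Plk1 and went from 0 and 5.56 TPM at day 7 to between 17.0 and 39.8 TPM at day 21, and the counting names no strand.

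The chromosomal passenger complex holds Aurkc, whose log2 fold change with a pseudocount of 1 was the largest of the 41 genes, and Birc5, the single gene that limma placed past FDR 0.05 as higher in 8F- than in 4F-mini-oocytes. All 5 of its genes rose from day 7 to day 21 in 4F-mini-oocytes, against 25.3% of all genes tested. Aurkc (mm10, chr7:6995300-7003091, plus strand), the germ cell kinase of the complex, was at 0.837 and 3.58 TPM at day 7, 24.4, 48.7 and 52.1 TPM in 4F-mini-oocytes at day 21, and 60.0 and 64.1 TPM in 8F-mini-oocytes. It was nearly missing at day 7, where about 5 and 29 reads lay on it, and all day 21 libraries were clearly above that. Its mean was 18.9-fold higher at day 21 in 4F-mini-oocytes, with a log2 fold change on the log2(TPM + 1) scale of 3.81 (SE 0.47, adjusted p = 0.00119). That value was 3.15 without day 7 replicate 1 and 4.47 without day 7 replicate 2, and with a pseudocount of 5 it was 2.66, below that of Bub1b (3.06). Aurkc has near-identical copies in the genome. Of its 50-base stretches, 54.8% also occur in transcripts of other genes, mainly Gm12463, and the authors kept reads that map to 1 place. How many reads this removed was not tested, and the level is uncertain. The 8F libraries lay above all 4F libraries, but the difference of 0.63 (SE 0.47) did not pass the test (adjusted p = 0.511). Gm12463 itself went from 0.3 and 8.57 TPM at day 7 to between 9.3 and 40.7 TPM at day 21.

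Aurkb, the Aurora kinase of somatic cells in the same place, was at 5.45 and 5.72 TPM in the day 7 libraries, 34.0, 42.9 and 35.8 TPM in the 4F libraries and 27.1 and 25.2 TPM in the 8F libraries of day 21. Its groups did not overlap, with day 7 lowest and 4F at day 21 highest. It rose by 2.54 from day 7 to day 21 in 4F-mini-oocytes (SE 0.18, adjusted p = 0.000158). The ratio of Aurkc to Aurkb within a library, a description chosen after the values were seen, was 0.154 and 0.626 at day 7, 0.718, 1.13 and 1.46 in 4F-mini-oocytes at day 21, and 2.22 and 2.54 in 8F-mini-oocytes. The 3 groups did not overlap in this ratio. Incenp, the scaffold of the complex, was at 132 and 142 TPM at day 7, 444, 454 and 414 TPM in 4F-mini-oocytes at day 21, and 287 and 328 TPM in 8F-mini-oocytes. It rose by 1.67 in 4F-mini-oocytes (adjusted p = 0.000102) and was lower in 8F- than in 4F-mini-oocytes by 0.51 (SE 0.10, adjusted p = 0.0338). Cdca8, which encodes borealin, a subunit that helps bring the complex to centromeres, was at 47.1 and 45.8 TPM in the day 7 libraries, 146, 126 and 148 TPM in the 4F libraries and 94.6 and 101 TPM in the 8F libraries of day 21. As with Incenp, every 8F library lay between the day 7 and the 4F libraries, and its difference between 8F and 4F at day 21 was -0.51 (SE 0.11, adjusted p = 0.0461).

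Birc5 (mm10, chr11:117849251-117855743, plus strand), which encodes survivin, the subunit of the complex that binds the inner centromere, went the other way between the factor sets. It was at 58.1 and 86.4 TPM in the day 7 libraries, 402, 393 and 395 TPM in the 4F libraries and 937 and 864 TPM in the 8F libraries of day 21. The 3 groups lay far apart, with day 7 lowest and 8F highest. Birc5 rose by 2.47 from day 7 to day 21 in 4F-mini-oocytes (SE 0.17, adjusted p = 0.00013), and its mean was 2.27-fold higher in 8F- than in 4F-mini-oocytes at day 21, a log2 fold change of 1.18 (SE 0.17, adjusted p = 0.0126). This difference was 1.12 and 1.24 without either 8F library and did not pass there (adjusted p = 0.143 without replicate 1 and 0.102 without replicate 2). Among the 41 genes Birc5 stood at place 12 by mean TPM at day 7, at place 6 in 4F-mini-oocytes at day 21 and at place 1 in 8F-mini-oocytes. The ratio of Birc5 to Incenp, its partner in the complex, was 0.439 and 0.61 at day 7, 0.906, 0.864 and 0.954 in 4F-mini-oocytes, and 3.26 and 2.63 in 8F-mini-oocytes. With Birc5 in it, the summed level of the complex was higher in 8F-mini-oocytes (1406 and 1383 TPM) than in 4F-mini-oocytes (1050, 1064 and 1045 TPM). Of its 5 genes, 3 lay wholly below in 8F and 2 wholly above, against 19.8% and 24.1% of all genes tested.

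**Figure D2:**
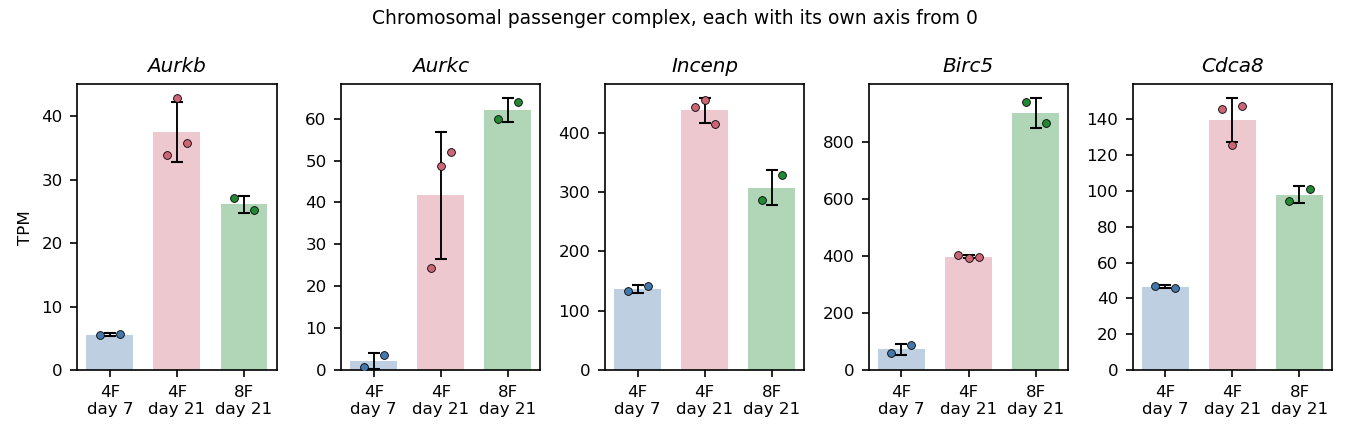
TPM of the 5 genes of the chromosomal passenger complex, with bars for the group mean, error bars for the SD and points for single libraries (n = 2, 3 and 2), each panel on its own axis from 0. Aurkc and Birc5 have their highest bar in 8F-mini-oocytes, and Aurkb, Incenp and Cdca8 in 4F-mini-oocytes at day 21.

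All 7 genes of the spindle assembly checkpoint rose from day 7 to day 21 in 4F-mini-oocytes, against 25.3% of all genes tested. They did so by very different amounts. Bub1b encodes BubR1, a part of the mitotic checkpoint complex that also steadies attachments in oocytes. It was at 43.7 and 52.9 TPM at day 7, 477, 444 and 398 TPM in 4F-mini-oocytes at day 21, and 482 and 436 TPM in 8F-mini-oocytes. Both sets of day 21 libraries overlapped and lay far above day 7, a mean 9.1-fold higher in 4F-mini-oocytes (log2 fold change 3.16, SE 0.13, adjusted p = 4.12e-05). Its paralog Bub1, a kinase that marks the centromere for the shugoshins, was at 94.0 and 86.8 TPM in the day 7 libraries, 136, 136 and 124 TPM in the 4F libraries and 141 and 138 TPM in the 8F libraries of day 21. Bub1 was the higher of the pair at day 7 and the lower at day 21. The ratio of Bub1b to Bub1, again a description chosen after the values were seen, was 0.465 and 0.609 at day 7 and between 3.16 and 3.51 in the 5 day 21 libraries. Bub1 rose by 0.54 (SE 0.10, adjusted p = 0.00547) in 4F-mini-oocytes, which became -0.08 (adjusted p = 0.587) after quantile normalization.

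Ttk, the Mps1 kinase that starts the checkpoint signal, was at 25.2 and 34.9 TPM at day 7, 138, 115 and 126 TPM in 4F-mini-oocytes at day 21, and 135 and 124 TPM in 8F-mini-oocytes. Its 4F and 8F libraries of day 21 overlapped, all above day 7. Its mean was 4.21-fold higher at day 21 in 4F-mini-oocytes, with a log2 fold change of 2.05 (SE 0.16, adjusted p = 0.000239). Cdc20, the activator of the anaphase-promoting complex that the checkpoint holds back, was at 25.3 and 21.2 TPM in the day 7 libraries, 42.3, 52.0 and 47.1 TPM in the 4F libraries and 68.2 and 66.7 TPM in the 8F libraries of day 21. It rose by 0.99 in 4F-mini-oocytes (SE 0.15, adjusted p = 0.00248), a change that did not pass with voom (adjusted p = 0.172). The 3 groups of Cdc20 did not overlap, with the 8F libraries highest, but the difference of 0.51 between 8F and 4F did not pass the test (adjusted p = 0.0921). Mad2l1, which encodes the MAD2 protein that binds CDC20, was at 12.0 and 20.0 TPM at day 7, 37.1, 39.7 and 36.6 TPM in 4F-mini-oocytes at day 21, and 47.9 and 44.4 TPM in 8F-mini-oocytes. Bub3, the partner of both BUB kinases, was at 13.0 and 12.6 TPM in the day 7 libraries, 41.6, 35.2 and 34.0 TPM in the 4F libraries and 47.7 and 49.7 TPM in the 8F libraries of day 21. Both genes stayed low, under 50 TPM in every library, and rose by 1.23 (adjusted p = 0.00506) and 1.45 (adjusted p = 0.000611) in 4F-mini-oocytes. Mad1l1, which anchors MAD2 at the kinetochore, was at 135 and 106 TPM at day 7, 193, 207 and 227 TPM in 4F-mini-oocytes at day 21, and 139.5 and 156 TPM in 8F-mini-oocytes. It was the most abundant checkpoint gene at day 7, where Bub3, Mad2l1 and Cdc20 were between 12.0 and 25.3 TPM. It rose by 0.80 in 4F-mini-oocytes (SE 0.14, adjusted p = 0.00479), a change that did not pass after quantile normalization or with voom. Bub1b exceeded its partners Mad2l1 and Cdc20 in all 7 libraries, with ratios to Mad2l1 of 3.65 and 2.64 at day 7 and 9.84 to 12.8 at day 21.

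Between the factor sets, limma placed 0 of the 7 checkpoint genes past FDR 0.05, against 8.37% of all genes tested. In that fit 3 had an unadjusted p under 0.05, a cutoff at which the share of all genes was not counted. Voom on recovered reads placed 1 past FDR 0.05, against 10.3% of all genes. This was Bub3, which was higher in 8F (log2 fold change 0.54, adjusted p = 0.0277). The summed checkpoint level was 1065, 1028 and 992.9 TPM in the 4F libraries and 1061 and 1015 TPM in the 8F libraries.

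Of the 11 kinetochore genes, 9 rose from day 7 to day 21 in 4F-mini-oocytes and none fell, against 25.3% and 15.3% of all genes tested. The kinetochore binds microtubules through the NDC80 complex, a rod made of the products of Ndc80, Nuf2, Spc24 and Spc25. Ndc80, the subunit at the microtubule end, was at 22.5 and 23.7 TPM at day 7, 172, 174 and 153 TPM in 4F-mini-oocytes at day 21, and 85.5 and 91.6 TPM in 8F-mini-oocytes. Nuf2, its partner there, was at 24.1 and 24.7 TPM in the day 7 libraries, 227, 179 and 212 TPM in the 4F libraries and 142 and 142 TPM in the 8F libraries of day 21. For both, the 3 groups did not overlap, with day 7 lowest, 8F between and 4F at day 21 highest. They rose by 2.79 (SE 0.11, adjusted p = 3.79e-05) and 3.02 (SE 0.12, adjusted p = 4.13e-05). The subunits at the inner end had smaller log2 fold changes. Spc25 was at 45.2 and 47.3 TPM at day 7, 133, 169 and 139 TPM in 4F-mini-oocytes at day 21, and 97.7 and 89.4 TPM in 8F-mini-oocytes, a rise of 1.64 in 4F-mini-oocytes (adjusted p = 0.000255). Spc24 went from 81.4 and 101 TPM at day 7 to 175, 171 and 179.5 TPM in 4F-mini-oocytes at day 21, by 0.94 (adjusted p = 0.00142), which did not pass after quantile normalization or with voom. Neither gene had groups that overlap. Within a library the levels of the 4 subunits lay closer together at day 21 than at day 7. The highest was 3.62 and 4.27 times the lowest in the day 7 libraries, 1.7, 1.06 and 1.53 times in the 4F libraries of day 21, and 1.78 and 1.6 times in the 8F libraries.

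Cenpf, a large kinetochore and nuclear matrix protein of dividing cells, was at 59.5 and 79.5 TPM in the day 7 libraries, 397, 343 and 341 TPM in the 4F libraries and 225 and 234 TPM in the 8F libraries of day 21. It rose by 2.37 in 4F-mini-oocytes (SE 0.15, adjusted p = 0.000103) with no overlap between the groups. Dsn1 and Mis12 of the MIS12 complex, the link between centromere and NDC80, and Knl1, the platform of the checkpoint, rose by 1.96, 1.12 and 1.09, and the motor Cenpe, which brings chromosomes to the middle of the spindle, rose by 0.87. Of these, the call for Cenpe did not pass after quantile normalization (0.24, adjusted p = 0.228) or with voom (0.34, adjusted p = 0.0872), and that for Mis12 did not pass with voom (0.62, adjusted p = 0.053). Cenpa and Cenpc1, at the base of the kinetochore, had positive log2 fold changes that did not pass. Cenpa, the histone variant that marks the centromere and is held for long in oocyte chromatin, was at 10.7 and 6.86 TPM at day 7 and 17.9, 10.3 and 9.52 TPM in 4F-mini-oocytes at day 21, groups that overlap (log2 fold change 0.45, adjusted p = 0.329). In 8F-mini-oocytes it was at 23.5 and 22.3 TPM, higher than every 4F library but not past the test (log2 fold change 0.87, adjusted p = 0.191, and 1.05 with adjusted p = 0.0381 by voom). Cenpc1, which ties CENP-A to the outer plate, was at 15.7 and 15.9 TPM at day 7 and 25.1, 26.9 and 20.2 TPM in 4F-mini-oocytes, groups that do not overlap but did not pass the test (log2 fold change 0.57, adjusted p = 0.0565, and 0.035 without 4F replicate 3 of day 21).

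The spindle motors and microtubule factors held the most abundant of the 41 genes at day 7 and in 4F-mini-oocytes at day 21. In 4F-mini-oocytes 7 of the 8 rose, against 25.3% of all genes tested. Tacc3, which recruits the microtubule polymerase Ckap5 and in mouse oocytes is part of a spindle domain that takes the place of centrosome functions, was at 159 and 175 TPM at day 7, 1071, 1030 and 1004 TPM in 4F-mini-oocytes at day 21, and 756 and 764 TPM in 8F-mini-oocytes. Its groups did not overlap. It was the highest of the 41 genes in 4F-mini-oocytes and rose by 2.63 (SE 0.09, adjusted p = 3.79e-05). Kif4, a chromosome-bound kinesin that shapes the central spindle, was at 103 and 129 TPM in the day 7 libraries, 786, 792 and 806 TPM in the 4F libraries and 515 and 515 TPM in the 8F libraries of day 21. Its groups did not overlap, and it rose by 2.77 (SE 0.12, adjusted p = 4.18e-05). Of its exon bases, 15.1% are shared with Pdzd11 on the opposite strand, which moved alike, from 28.5 and 23.7 TPM at day 7 to between 105.0 and 133.0 TPM at day 21. Kif2c, the depolymerase that corrects wrong attachments, was at 32.9 and 35.2 TPM at day 7, 216, 234 and 236 TPM in 4F-mini-oocytes at day 21, and 164 and 182 TPM in 8F-mini-oocytes, a rise of 2.71 (SE 0.10, adjusted p = 3.79e-05). Tpx2, which activates AURKA and seeds microtubules near chromatin, was at 97.6 and 111 TPM in the day 7 libraries, 466, 427 and 443 TPM in the 4F libraries and 303 and 327 TPM in the 8F libraries of day 21, a rise of 2.09 (SE 0.10, adjusted p = 6.06e-05). In both, the 8F libraries lay between day 7 and the 4F libraries of day 21 with no overlap.

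Smaller rises were measured for the motor Kif11 (by 1.27), which pushes spindle poles apart, and for the motor Kifc1 (by 1.33), which pulls poles into focus. Kifc1 shares 39.7% of its 50-base stretches with other genes, mainly Kifc5b, and its level is uncertain to that extent. Ckap5 rose by 0.68 (adjusted p = 0.0145), which did not pass without either day 7 library (adjusted p = 0.084 and 0.0562 without replicate 1 and 2), with median-of-ratios or quantile scaling or with voom. Numa1, which holds microtubule ends together at the poles, was the most abundant of the 41 genes at day 7, at 211 and 193 TPM, and stood at 225, 180.3 and 233 TPM in 4F-mini-oocytes at day 21. These groups overlapped, and the log2 fold change of 0.07 did not pass the test, whereas quantile normalization and voom gave -0.53 (adjusted p = 0.0227) and -0.46 (adjusted p = 0.00534). Numa1 thus went from place 1 to place 12 among the 41 genes.

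**Figure D3:**
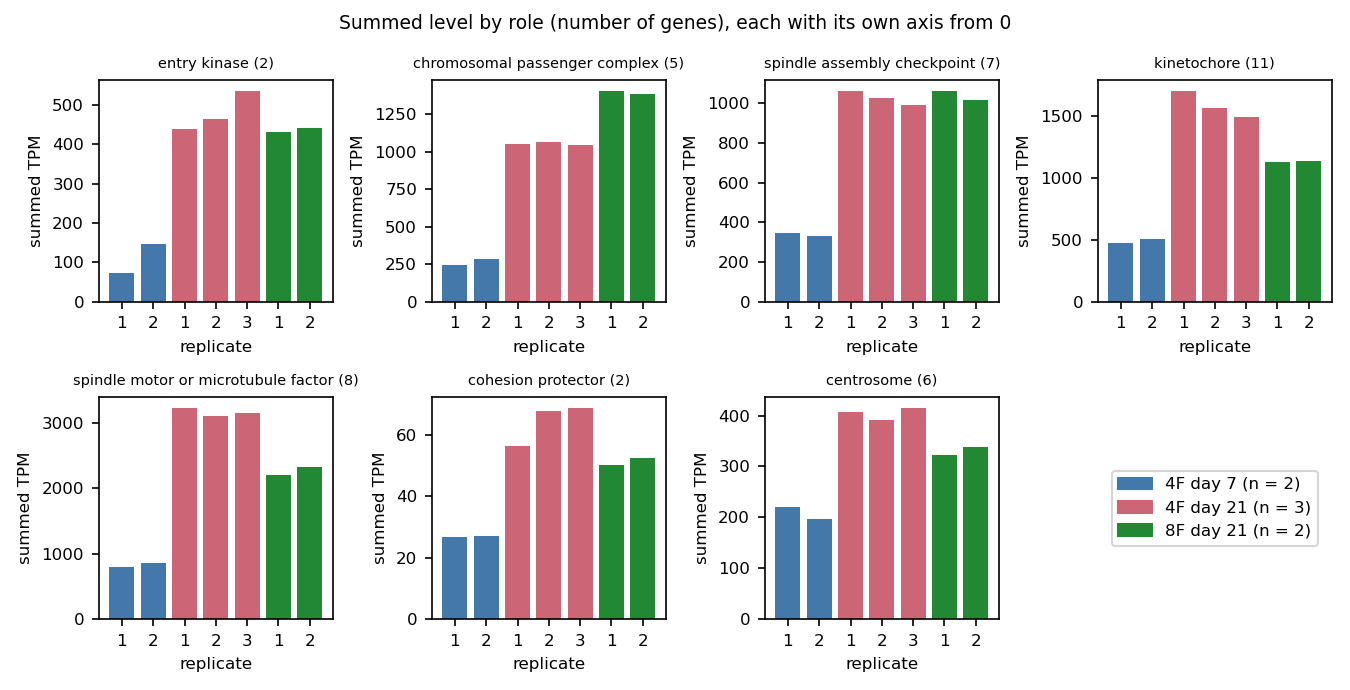
Summed TPM of the genes of each role in each library, 1 bar per library, each panel on its own axis from 0. Every role is higher at day 21 than at day 7. The kinetochore, the motors and microtubule factors, the cohesion protectors and the centrosome are lower in 8F- than in 4F-mini-oocytes, and the passenger complex is higher.

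The protectors of cohesion, the shugoshins, keep sister centromeres joined through the first meiotic division, a task in which Sgo2a is the main one in oocytes. Sgo2a was at 9.26 and 10.4 TPM at day 7, 28.5, 22.8 and 28.6 TPM in 4F-mini-oocytes at day 21, and 16.2 and 18.7 TPM in 8F-mini-oocytes. Sgo1, the mitotic counterpart, was at 17.7 and 16.7 TPM in the day 7 libraries, 27.9, 45.1 and 40.3 TPM in the 4F libraries and 34.1 and 33.9 TPM in the 8F libraries of day 21. Both stayed under 50 TPM, with all day 21 libraries above day 7. They rose by 1.35 (SE 0.20, adjusted p = 0.00239) and 1.06 (SE 0.22, adjusted p = 0.00912), and the rise of Sgo1 did not pass without day 7 replicate 2 (adjusted p = 0.0537) or with voom (0.56, adjusted p = 0.158). The ratio of Sgo1 to Sgo2a was between 0.979 and 2.1 over the 7 libraries, with groups that overlapped. Of the exon bases of Sgo2a, 35% are shared with Kctd18 on the opposite strand, which went from 5.41 and 5.82 TPM at day 7 to between 8.6 and 11.7 TPM at day 21, so the value of Sgo2a is uncertain.

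Of the 6 genes of the centrosome, 3 rose and 1 fell from day 7 to day 21 in 4F-mini-oocytes, against 25.3% and 15.3% of all genes tested. Their median log2 fold change was 0.53, the smallest of the 7 roles. Pcnt, which encodes pericentrin, the scaffold of the microtubule-organizing centres of oocytes, was at 51.0 and 53.7 TPM at day 7, 215, 188 and 224 TPM in 4F-mini-oocytes at day 21, and 130.0 and 149 TPM in 8F-mini-oocytes. It rose by 1.97 in 4F-mini-oocytes (SE 0.12, adjusted p = 0.0001), with no overlap between any of the groups. Cep192, which with AURKA and PLK1 builds pericentriolar material, was at 81.4 and 68.1 TPM in the day 7 libraries, 53.5, 57.9 and 49.5 TPM in the 4F libraries and 68.4 and 58.0 TPM in the 8F libraries of day 21. It was the single gene of the 41 that fell, by 0.47 (SE 0.14, adjusted p = 0.0392), and this call did not pass in 5 of the 7 fits with 1 library left out (without day 7 replicate 1, 4F replicate 1 or 3 of day 21, or either 8F library, adjusted p from 0.0559 to 0.155). Over the 10 other settings the log2 fold change of Cep192 ran from -1.04 to -0.41. The call was kept with median-of-ratios or quantile scaling and with voom. It was lost without a filter, without the trend, with only the groups compared and with the block. The ratio of Pcnt to Cep192 was 0.626 and 0.789 at day 7 and 3.24 to 4.51 in 4F-mini-oocytes at day 21, and 1.9 and 2.57 in 8F-mini-oocytes.

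Plk4, the kinase that starts a new centriole and in oocytes serves the organizing centres, was at 34.9 and 28.1 TPM at day 7, 53.9, 60.4 and 59.6 TPM in 4F-mini-oocytes at day 21, and 68.8 and 73.2 TPM in 8F-mini-oocytes, a rise of 0.86 in 4F-mini-oocytes (SE 0.14, adjusted p = 0.0034) that did not pass after quantile normalization or with voom. Cep135 of the centriole cartwheel was at 21.5 and 15.5 TPM in the day 7 libraries, 52.1, 48.5 and 47.9 TPM in the 4F libraries and 33.3 and 34.2 TPM in the 8F libraries of day 21, a rise of 1.39 (adjusted p = 0.00113). No groups overlapped in either gene, with 8F highest for Plk4 and 4F at day 21 highest for Cep135, and neither difference between 8F and 4F passed the test (adjusted p = 0.293 and 0.116). Cep152 and Cep63, scaffolds that take part in recruiting PLK4, did not pass between the days in 4F-mini-oocytes. Cep152 was at 11.5 and 13.1 TPM at day 7, 9.92, 13.4 and 14.2 TPM in 4F-mini-oocytes at day 21, and 9.1 and 11.5 TPM in 8F-mini-oocytes, where the 4F libraries of day 21 overlapped both other groups and both 8F libraries lay just below day 7. Cep63 was at 19.8 and 18.8 TPM in the day 7 libraries, 21.7, 24.6 and 20.4 TPM in the 4F libraries and 12.4 and 12.2 TPM in the 8F libraries of day 21. Its 4F libraries lay just above day 7, and its 8F libraries lay below both (adjusted p = 0.435 between the days in 4F and 0.0438 between the factor sets). Cep152 was the lowest of the 41 genes in both day 21 groups.

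The comparison of the factor sets at day 21 sets the 8F line beside the 4F line. The 4 further factors cannot be told apart from the line and its reporter. Limma placed 11 of the 41 genes past FDR 0.05, 1 higher and 10 lower in 8F-mini-oocytes, against 8.37% of all genes tested, of which 3.95% were higher and 4.41% lower. The higher gene was Birc5. The lower ones were Ndc80 (log2 fold change -0.90, SE 0.11, adjusted p = 0.00854), Cep63 (-0.80), Cenpf (-0.65), Spc25 (-0.64), Kif4 (-0.62), Pcnt (-0.58), Incenp (-0.51), Cdca8 (-0.51), Tpx2 (-0.50) and Tacc3 (-0.44). The median log2 fold change of the 41 genes was -0.40, against 0.06 for all genes tested. Both 8F libraries lay below all 3 4F libraries in 25 genes and above them in 9, against 19.8% and 24.1% of all genes tested (together 43.8%), and 7 genes overlapped. All 8 spindle motors and microtubule factors lay wholly below in 8F, with differences from -0.38 to -0.62, and so did 8 of the 11 kinetochore genes.

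These calls depended on single libraries. The count fell from 11 to 2, 4 and 2 without 4F replicate 1, 2 or 3 of day 21, where 4.33%, 4.24% and 4.69% of all genes passed. Without 8F replicate 1 or 2 that group holds 1 library, and the median log2 fold change of the 41 genes was -0.34 and -0.44. Birc5 and Ndc80 were the 2 genes that stayed past the threshold in every fit with 1 day 7 or 4F library left out. The calls were 1 higher and 3 lower with median-of-ratios rescaling, 1 and 4 with quantile normalization, and 4 higher (Birc5, Bub3, Cenpa and Plk4) and 10 lower with voom. The median of the 41 genes stayed between -0.44 and -0.26 in all 17 alternatives. The 8F columns of the deposited table run to 17 decimals at most and the 4F columns to 9. How the columns were written out therefore cannot be told apart from the factor set, and 8F and 4F could not be compared among columns written alike.

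**Figure D4:**
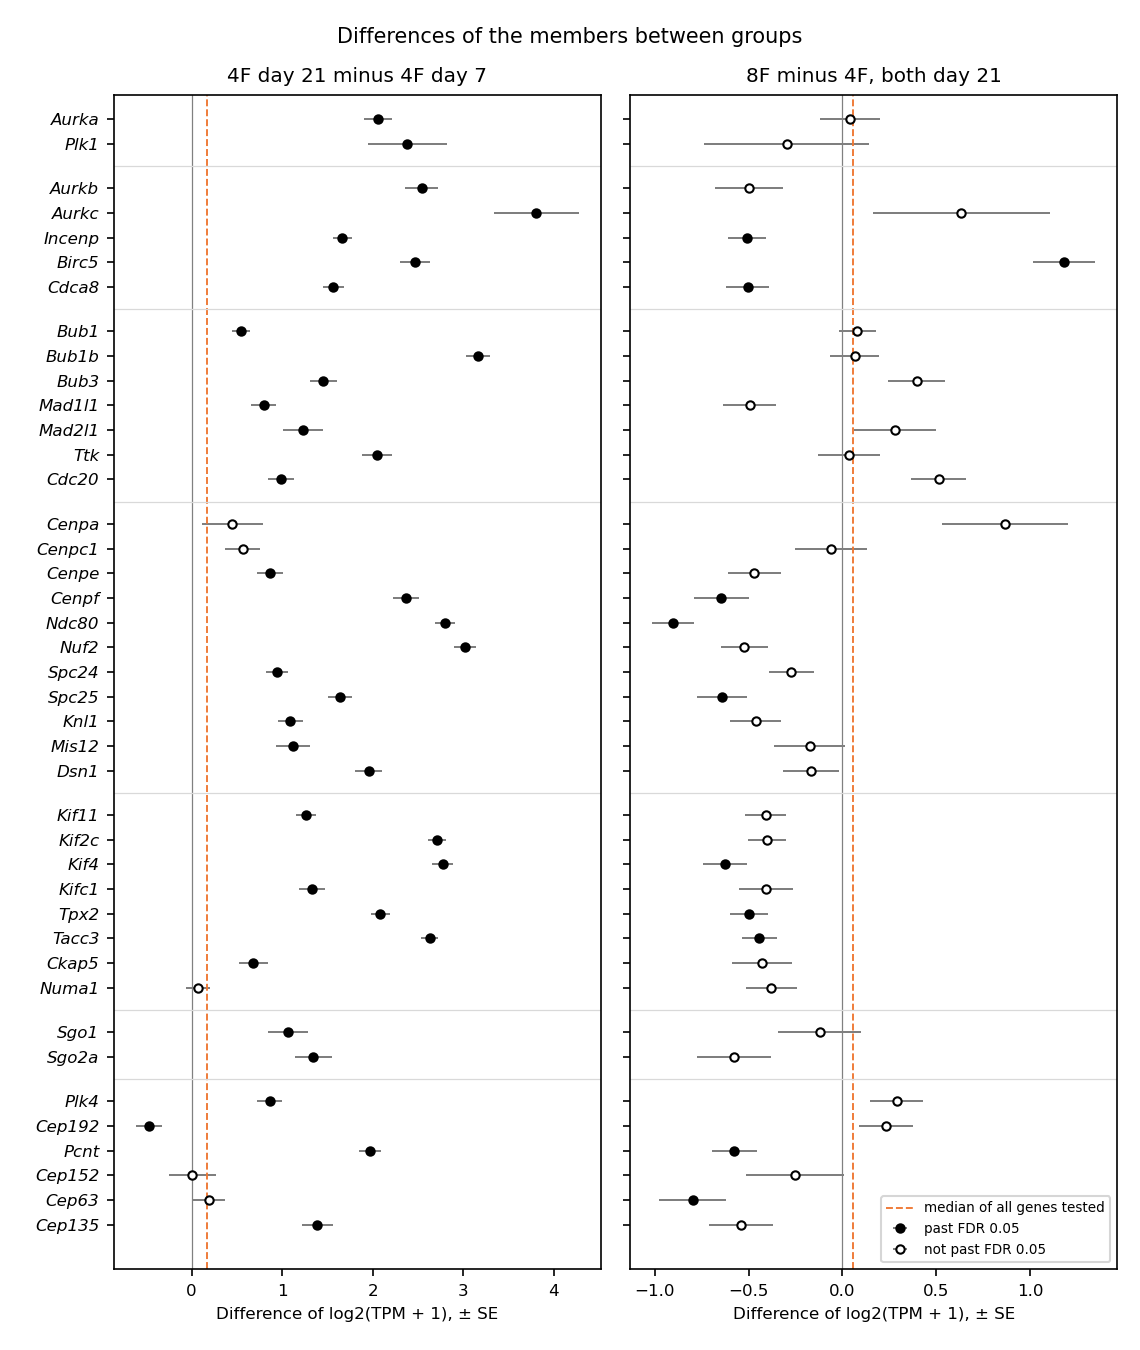
Differences of log2(TPM + 1) with SE for the 41 genes, for day 21 against day 7 in 4F-mini-oocytes (left) and between 8F and 4F at day 21 (right), with filled points for genes past FDR 0.05 and a dashed line at the median of all genes tested. On the left all but 1 of the filled points lie above 0, and on the right Birc5 is the only filled point above 0. The 2 panels share the 4F libraries of day 21.

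Exon length moved with the differences. Across the 41 genes the correlation of log2 exon length with the difference between 8F and 4F was -0.30, and across 13947 protein-coding genes it was -0.27, a description over genes that share the same libraries. For day 21 against day 7 in 4F the correlations were -0.37 across the 41 genes and 0.02 across all, and for 8F against day 7 they were -0.47 and -0.11. The values that follow are for 8F against 4F at day 21. Of the 6 genes with up to 3000 exon bases, 3 lay below 0, and of the 35 longer genes 26 did. In 5 of 6 bins of exon length the median of the 41 genes lay below that of all protein-coding genes, and in the shortest bin, with 2 of them, it lay above (0.57 against 0.27). Between 4001 and 6000 bases the median was -0.25 for 11 of the 41 genes and 0.02 for all, and between 6001 and 8000 bases it was -0.47 for 8 and -0.04 for all. Birc5 has 3402 exon bases, where the median of all protein-coding genes was 0.07. The part of exon length in the single differences was not tested.

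**Figure D5:**
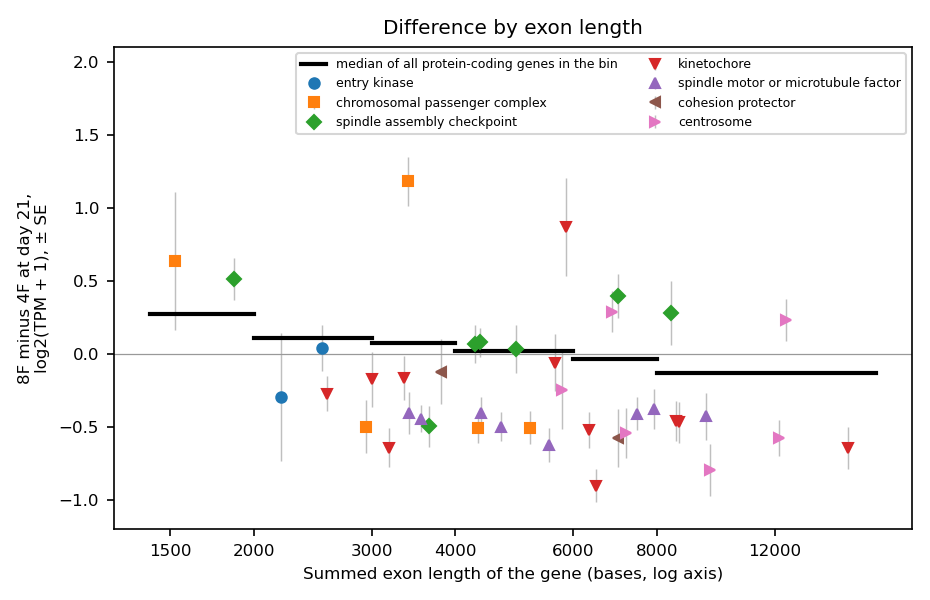
Difference between 8F and 4F at day 21, in log2(TPM + 1) with SE, against the summed exon length of each of the 41 genes on a log axis, coloured by role, with black lines for the median of all protein-coding genes in 6 bins of length. The black lines fall from 0.27 in the shortest to -0.13 in the longest bin, and most of the 41 genes lie below them.

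Against 4F-mini-oocytes at day 7, 8F-mini-oocytes had 34 of the 41 genes past FDR 0.05, 33 higher and 1 lower, where 37.2% of all genes tested passed and 24.2% were higher and 13.0% lower. This comparison shares its libraries with both others. The largest log2 fold changes were those of Aurkc (4.44), Birc5 (3.65), Bub1b (3.23), Nuf2 (2.50), Kif2c (2.31), Tacc3 (2.18) and Kif4 (2.15). Both 8F libraries lay above both day 7 libraries in 37 genes and below them in 3, where 43.9% and 28.4% of all genes tested did so (together 72.3%). The value of Aurkc was 3.78 without day 7 replicate 1 and 5.10 without day 7 replicate 2. That of Plk1 (2.09) was 1.25 and 2.93 likewise, and it did not pass without either 8F library (adjusted p = 0.109 and 0.112). Cenpa passed in this comparison (1.32, adjusted p = 0.0308) but not without day 7 replicate 2 or either 8F library, or with median-of-ratios rescaling. Mad1l1, Cenpe and Ckap5, which rose in 4F-mini-oocytes, had log2 fold changes of 0.30, 0.40 and 0.25 here and did not pass. The gene that was lower, Cep63, lay at the threshold and did not pass in any of the fits with 1 library left out.

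Other genes of the same structures were read from lists of their known parts, drawn up with earlier results of these data known. Of 33 further kinetochore genes, 16 rose and 2 fell from day 7 to day 21 in 4F-mini-oocytes, and with voom 12 were higher and 5 lower. Among all genes tested 25.3% were higher and 15.3% lower, a share to set beside this and the following lists. The largest rise of a gene with at least 5 TPM was that of Mad2l1bp, which encodes the factor that helps take MAD2 off CDC20, from 2.93 to 37.4 TPM, followed by Cenpn (from 33.4 to 292 TPM) and Bod1 (from 51.9 to 377 TPM). Cenpb, which binds a motif of centromere repeats, fell from 13.6 and 5.92 TPM at day 7 to a mean of 0.405 TPM (log2 fold change -2.84, adjusted p = 0.00268), and Cenpt fell by 0.87. Of 41 further spindle genes tested, 26 rose, led by Aspm (2.84), Kif23 (2.63) and Kif22 (2.22), and 3 fell, Tubgcp6 (-1.83), Hmmr (-0.74) and Haus2 (from 21.0 to 8.66 TPM), where voom gave 16 higher and 9 lower. Of 26 further centrosome genes, 14 rose, led by Nek2 (2.47), Odf2 (2.03) and Cenpj (1.90), and 2 fell, Ninl (-1.92) and Cep97 (-1.16), where voom gave 10 higher and 4 lower.

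Among 31 genes of anaphase and cohesion, 17 rose and 2 fell, but with voom 7 were higher and 7 lower, so the balance of the list depends on the scaling. Pttg1, which encodes securin, the inhibitor of separase, rose from 47.0 to 356 TPM, Fbxo5, an inhibitor of the anaphase-promoting complex, from 26.1 to 128 TPM, and Cdca5, which encodes sororin, from 40.2 to 162 TPM. The 2 that fell are subunits of meiotic cohesin, Rec8, which was at 9.03 and 6.92 TPM at day 7 and listed at 0 in all 3 4F libraries of day 21, and Stag3, at 48.0 and 16.3 TPM at day 7 and 6.07, 4.18 and 6.45 TPM in 4F-mini-oocytes at day 21. Smc1b, the meiotic form of a cohesin core subunit, rose in the same comparison, from 226 to 329.5 TPM (log2 fold change 0.55, adjusted p = 0.00798). Between the factor sets the 4 of 31 genes past the threshold in this list were lower in 8F-mini-oocytes. They include Smc1b, at 329.5 ± 13.5 TPM (SD, n = 3) in 4F and 129 ± 3.2 TPM (SD, n = 2) in 8F (log2 fold change -1.34, SE 0.11, adjusted p = 0.00297), its counterpart Smc1a (-0.95) and Smc3 (-0.60). In the same comparison 2 of 33 further kinetochore genes (Cenpn at -0.81 and Cenph at -0.79), 4 of 26 centrosome genes and 6 of 41 spindle genes were lower in 8F, against 4.41% of all genes tested, and 1 spindle gene, Mcrs1, was higher (0.53).

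Markers of other states were read beside these results. All 7 genes of a proliferation list (Mki67, Top2a, Ccnb1, Ccna2, Pcna, Mcm2 and Cdk1) rose from day 7 to day 21 in 4F-mini-oocytes, of which 4 passed with voom, and their summed level was 308.3 and 367.2 TPM at day 7, 789.9 to 830.7 TPM in 4F and 834.2 and 804.7 TPM in 8F at day 21. All 9 oocyte markers rose too, from 10580 and 13280 TPM to between 43880 and 48090 TPM in 4F, and stood at 33120 and 32600 TPM in 8F. Summed mESC markers were 61.1 and 81.9 TPM at day 7, 224.3 to 342.5 TPM in 4F and 122.9 and 163.7 TPM in 8F at day 21. Of the 5 that were tested, Pou5f1 and Esrrb rose and Zfp42 fell in 4F-mini-oocytes, while Nanog was listed at 0 in all day 21 libraries and Sox2 reached at most 3.59 TPM. The 6 granulosa markers summed to between 3.01 and 20.1 TPM, with Inha listed at 0 in all 7 libraries. Ccnb1, the cyclin of CDK1, was also higher in 8F- than in 4F-mini-oocytes (1.12, adjusted p = 0.0141), and Top2a was lower (-0.63). The part of cells in division and of mESC-like cells in these levels was not tested.

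Depth does not limit most of these values. An estimated 9056691 to 17199103 reads per library lay on genes, at which 3 reads on 1 kb of exon are worth 0.515 to 0.764 TPM. All 41 genes passed the filter on low values, and only Aurkb and Aurkc had fewer than 100 reads, in the day 7 libraries. Such limits cover counting error only, since PCR copies cannot be told from separate molecules here. The day 7 libraries agreed less with each other (Pearson r = 0.905 across genes) than replicates at day 21 (0.949 to 0.952 in 4F and 0.983 in 8F). The 10 most abundant genes took 28.5% and 31.8% of the total at day 7, against 10.2% to 14% at day 21. More genes were above 0 in the 8F libraries (26563 and 26750) than in the 4F libraries of day 21 (21293 to 22316). The 8F libraries were also deeper, with an estimated 17199103 and 16975373 reads on genes against 13841949 to 15733773. These differences between libraries cannot be told apart from the factor set.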

How the data were processed

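RNA-seq libraries were prepared by the authors with the SMART-seq Stranded Kit from 7 pooled samples. Per the submitters' processing notes and the study's methods, reads were trimmed with Trim Galore, aligned to mm10 with HISAT2, cleared of rRNA with bedtools, limited to reads that map to 1 place and counted with featureCounts, with fractions for overlapping genes and no strand option stated. The authors deposited TPM values, 1 column per library. NovaSeq instrument and read length differed between libraries and are not given per library.

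The 21780 of 55364 genes that reached 1 TPM in 2 or more of the libraries entered a single limma model (version 3.58.1, R 4.3.3) of log2(TPM + 1) with 3 groups and all 7 libraries, moderated with a mean-variance trend. Tests were two-sided, with Benjamini-Hochberg adjustment over all genes tested at FDR 0.05. A fold change on this scale is understated for low genes. Since the smallest values are multiples of what 1 read is worth, read numbers were estimated. Exon lengths came from a GENCODE release in mm10 (54312 genes matched with their version) that is earlier than the one the study states. With them 78.8% to 83.9% of low values came out whole within 0.02. These estimated reads served for depth and for voom. The alternatives were 10 other settings and 7 fits with 1 library left out.

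The members, their roles and the related lists were chosen with earlier results of these data known. Values in every library are given for up to 10 genes in each direction past FDR 0.05 per comparison (mean of at least 2 TPM in the higher group) and for the Aurora kinases, checkpoint, shugoshin and centrosome genes. Genes of related lists are named up to 3 per direction (mean of at least 5 TPM). Cenpa, Numa1 and other members outside this rule, and all ratios within libraries, were chosen after values were seen. Exon overlaps and shared 50-base stretches were computed from the same annotation.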

Additional observations from a re-analysis of the deposited data

How the results depend on the processing

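The number of the 41 genes past FDR 0.05 stayed within 1.5 times of 36 (28 to 36) for day 21 against day 7 in 4F and of 34 (25 to 34) between 8F at day 21 and 4F at day 7, under all 17 alternatives. In the first comparison 26 of the 36 genes passed in every alternative, and in the last 22 of 34. Between 8F and 4F at day 21 the count of 11 moved to 4 without a filter, 4 after rescaling by median of ratios, 5 after quantile normalization, 2 without the trend in eBayes and 0 with the replicate number as a block, and it ranged from 0 to 9 with 1 library left out. The limma fit with the block left 164 genes of the whole table past FDR 0.05 (0.753%). It left 19 of the 41 genes at an unadjusted p under 0.05, a cutoff at which the share of all genes was not counted. With voom the count was 14, of which 4 were higher. Deviations of same-numbered samples correlated between -0.037 and 0.011. These values cannot decide whether replicate numbers pair the samples, since in a group of 2 the deviations mirror each other. The fit with the block takes no information from 4F replicate 3 of day 21, whose number has no partner. With 1 library in a group, the lone sample is assumed to vary like the others. Some small log2 fold changes turned sign. For day 21 against day 7 in 4F they were Bub1 (-0.079 with quantile normalization), Numa1 (-0.27, -0.526 and -0.456 with median of ratios, quantile and voom), Cep63 (-0.134, -0.071 and -0.333 likewise) and Cep152 (-0.308, -0.086 and -0.552 likewise, -0.085 with the block, and -0.085 to 0.155 with 1 library left out). For 8F against 4F at day 21, with 1 library left out, they were Aurka (-0.058 to 0.115), Bub1b (-0.005 to 0.138, and -0.003 with the block), Ttk (-0.032 to 0.099), Cenpc1 (-0.178 to 0.056, and 0.077 with voom) and Sgo1 (-0.32 to 0.016, and 0.033 with voom). For 8F at day 21 against 4F at day 7 they were Mad1l1 (-0.022, -0.249 and -0.071 with median of ratios, quantile and voom), Ckap5 (-0.07, -0.314 and -0.143 likewise) and Cenpe (-0.16 with quantile). The median of all genes tested for day 21 against day 7 in 4F was 0.17 as reported and -0.06, 0.04 and -0.32 with median of ratios, quantile and voom. The cause of these changes was not tested.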
